A study of Mus musculus with 8 samples.

Results

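Genes of cell cycle exit were examined at the level of RNA in lens fiber cells (FC) of untreated control (Ct) mice and of mice kept in cigarette smoke (CS). The set holds 10 genes chosen by symbol, of 35275 genes listed, and all 10 were found. They are the cyclin-dependent kinase (CDK) inhibitors Cdkn1b, Cdkn1c and Cdkn2c, the pocket protein genes Rb1, Rbl1 and Rbl2, the D-type cyclins Ccnd1 and Ccnd2, the kinase gene Cdk4, and the transcription factor gene E2f1. All mice were C57BL/6 by the sample labels and C57BL/6J by the study's methods. The CS-exposed mice were in a whole-body smoke chamber from around birth for 3.5 months, 5 hours on each of 5 days a week, and the age-matched Ct mice were kept in the animal facility without smoke, so that smoke and housing in the chamber cannot be told apart. Each of the 8 libraries, 4 of each group, came from FC of the right eyes of a pool of 4 mice, separated from the epithelium under a microscope. By the study's methods each group held as many male as female replicates, but the sex is not given for single libraries. Sex thus varied within both groups and could not be separated from the spread between pools.

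A lens FC arises at the lens equator, where an epithelial cell leaves the cell cycle, elongates and fills with crystallins. D-type cyclins with CDK4 or CDK6 phosphorylate the retinoblastoma family (RB1, p107 encoded by Rbl1, and p130 encoded by Rbl2), which frees E2F factors to turn on genes of DNA replication. The inhibitors p27 (Cdkn1b), p57 (Cdkn1c) and p18 (Cdkn2c) oppose these kinases. In the mouse lens, p27 and p57 are known to act together in cell cycle exit, and fiber cells without RB1 re-enter the cycle.

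Values are FPKM, fragments scaled to gene length and to the mapped reads of each library, which are per length and so allow levels of different genes to be set side by side. An estimated 18090000 to 23250000 fragments stood behind a library. All 11 markers of lens FC were expressed above 1 FPKM, led by the crystallin gene Cryaa at 90037 to 101638 FPKM. Lim2, a fiber membrane protein gene, was the lowest at 6.47 to 8.62 FPKM. Between groups 0 of the 11 passed p under 0.05 by limma, where 4.83% of all genes tested did. With so few genes, a count of 0 lies near this share. Traces of other cells were present. The summed level of 7 lens epithelium markers, led by Foxe3, a transcription factor gene of the epithelium, ranged from 66.3 to 124 FPKM in Ct libraries and from 54.7 to 84.9 FPKM in CS libraries. The summed level of 6 rod photoreceptor markers, led by the transducin gene Gnat1, was 6.13 to 21.8 FPKM in Ct libraries and 24.5 to 79.5 FPKM in CS libraries. The sum of 4 pigment epithelium markers, led by Ttr, a thyroid hormone carrier, was 0.922 to 1.84 FPKM against 2.68 to 25.4 FPKM. Some of these markers reached the minimum level for testing only in CS, where they were high, so no count of tests is given for them. Markers of the iris and ciliary body (led by Dct), of blood (Hbb-bs), of immune cells (Cd68) and of vessels (Pecam1) each summed to at most 2.61 FPKM in Ct libraries, and in CS libraries reached 21.2 FPKM for blood and 6.52 FPKM for iris and ciliary body. The part of these cells in the results for cell cycle genes was not tested, apart from the epithelium score described for Ccnd2. In pooled tissue, fewer cells of a type and less RNA per cell cannot be told apart.

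The level of Cdkn1c set it apart from the other regulators. Cdkn1c (chromosome 7, 143458339 to 143461050, minus strand, GRCm38) encodes p57, an inhibitor of several cyclin and CDK complexes that is expressed from the maternal allele. Its FPKM was 215.9, 216.1, 209.9 and 210.4 in the Ct libraries and 207.9, 204.5, 202.7 and 218.2 in the CS libraries. In 3 of 4 CS libraries the value lay below every Ct library, and the remaining CS library, replicate 4, had the highest value of all. It ranked 190 among the 35275 genes listed and took 75.9% to 78.7% of the summed FPKM of the 10 regulators in each library. This share was 77.8% ± 0.861 (SD, n = 4) in Ct libraries and 77.2% ± 1.11 (SD, n = 4) in CS libraries, a difference within the spread (two-sided exact permutation test, p = 0.4). Cdkn1c stood 4.57 to 5.06 times above Prox1, the homeobox factor gene that is known to act on the lens levels of both KIP-type inhibitors.

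The level of Cdkn1c was also among the steadiest measured. It rested on 7350 to 9422 reads in a library, and its coefficient of variation over the 8 libraries was 2.69%. Only 0.633% of the 9794 genes tested, taken at all levels, had a smaller spread of log2 values within groups. Genes of like level were not compared apart. Cdkn1c had a spread of 0.037 within groups, where its reads give 0.016 from counting alone. Its fitted log2 fold change, CS minus Ct, was -0.03 (standard error, SE, 0.04) and did not pass the test (limma, adjusted p = 0.985). With quantile normalization it was -0.06, with a limma p of 0.0544 before adjustment and 0.950 after it. The 95% interval of the fold, 0.922 to 1.04, leaves room for a small difference in either direction.

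Cdkn1b (chromosome 6, 134920401 to 134925513, plus strand) encodes p27, which binds cyclin and CDK complexes and is removed by ubiquitin-dependent turnover when cells enter S phase. Its FPKM was 9.81, 9.52, 10.1 and 8.60 in the Ct libraries and 10.7, 11.2, 10.04 and 9.66 in the CS libraries. In 2 of 4 CS libraries the value lay above every Ct library, and in the other two it lay among them. The group means were 9.50 ± 0.643 and 10.4 ± 0.687 (SD, n = 4 each). The log2 fold change of 0.13 (SE 0.08) had the smallest p of the regulators tested, 0.134 by limma, and ranked 1330 of 9794 genes (adjusted p = 0.956). A two-sided exact permutation test over the 70 ways to assign the libraries gave p = 0.143, where the smallest p possible is 0.0286. The interval of the fold ran from 0.968 to 1.24.

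Cdkn2c (chromosome 4, 109660876 to 109667189, minus strand) encodes p18, an INK4 inhibitor that binds CDK4 and CDK6. Its FPKM was 7.86, 9.24, 6.70 and 7.29 in the Ct libraries and 9.24, 7.52, 10.3 and 7.82 in the CS libraries, and the groups overlapped. The log2 fold change was 0.16 (SE 0.12), with an interval of the fold from 0.928 to 1.35 (limma, adjusted p = 0.956).

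The kinase gene Cdk4 and the cyclin gene Ccnd1 followed Cdkn1c in level. Cdk4 (chromosome 10, 127063534 to 127067920, plus strand), the kinase that D-type cyclins bring to RB1, had 15.4, 17.7, 15.7 and 14.9 FPKM in the Ct libraries and 14.6, 14.6, 15.7 and 15.6 FPKM in the CS libraries. Ccnd1 (chromosome 7, 144929931 to 144939925, minus strand), cyclin D1, had 13.8, 13.3, 14.9 and 14.7 FPKM in Ct and 13.9, 15.8, 15.1 and 14.3 FPKM in CS. Both genes overlapped between groups. The log2 fold change was -0.07 (SE 0.07) for Cdk4 and 0.06 (SE 0.07) for Ccnd1, and the intervals of the fold were 0.852 to 1.06 and 0.936 to 1.16.

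Ccnd2 (chromosome 6, 127125162 to 127152193, minus strand), cyclin D2, varied most among the regulators above 1 FPKM. Its FPKM was 3.59, 4.80, 6.06 and 2.92 in the Ct libraries and 3.28, 4.56, 4.09 and 2.52 in the CS libraries. The highest library thus held 2.40 times the level of the lowest, and the groups overlapped. Counting error was a small part of this. The spread within groups was 0.41 on the log2 scale, where 301 to 803 reads give 0.07 from counting alone, and 91.2% of the genes tested had a smaller spread. The fitted log2 fold change was -0.24 (SE 0.23), with an interval of the fold from 0.600 to 1.20 (limma, adjusted p = 0.976). Its size turned on single libraries, being -0.41 without Ct replicate 4, -0.08 without CS replicate 4 and -0.06 without Ct replicate 3.

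The pocket protein genes differed among themselves. Rbl2 (chromosome 8, 91070057 to 91123844, plus strand) encodes p130, the family member known from resting cells, where it joins E2F4 and the MuvB proteins in the DREAM complex. It had 5.10, 4.63, 5.10 and 4.59 FPKM in the Ct libraries and 5.10, 4.33, 4.83 and 4.85 FPKM in the CS libraries. Rb1 (chromosome 14, 73183673 to 73325822, minus strand) had 2.39, 1.94, 2.76 and 1.84 FPKM in Ct and 2.36, 1.97, 2.55 and 2.88 FPKM in CS. Groups overlapped for both genes, with a log2 fold change of -0.02 (SE 0.09) for Rbl2 and of 0.13 (SE 0.17) for Rb1. The intervals of the fold were 0.856 to 1.13 and 0.852 to 1.41.

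Rbl1 (chromosome 2, 157145893 to 157204534, minus strand) encodes p107, the family member known to be high in cycling cells and to be itself a target of E2F. It was the lowest of the 10 genes and did not reach the mean of 1 FPKM in either group that a gene needed to be tested with the others. Its FPKM was 0.269, 0.260, 0.433 and 0.227 in the Ct libraries and 0.175, 0.0980, 0.321 and 0.162 in the CS libraries. In 3 of 4 CS libraries the value lay below every Ct library, while the remaining CS library, replicate 3, exceeded 3 of the 4 Ct libraries. These values rested on only 11 to 49 reads. The difference on log2(FPKM + 0.1) was -0.49, and the exact permutation test did not reach the threshold (two-sided, p = 0.114). With a pseudocount of 0.01 it was -0.70 and with a pseudocount of 1 it was -0.13. Without CS replicate 3 the difference was -0.69 and the exact p was 0.0286, the smallest that 4 against 3 libraries allow. When the fit was repeated with no minimum level, Rbl1 gave an adjusted p of 0.906. The log2 ratio of the group means, -0.66, was larger in size than 2 SD of the log2 ratios of the 9787 tested genes with a ratio (0.49). Rbl1 was under the minimum level for that count, so this threshold was not set on genes of its level.

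The Rbl1 promoter is printed because it carries the E2F core motif close to its start, and that of Cdkn1b for contrast, because it has none. Both windows are the 250 bases before the RefSeq start (GRCm38.p6), 5′ to 3′ on the strand of the gene, with matches to the E2F core in capitals. Rbl1 is read on the minus strand (chr2:157204535-157204784) and Cdkn1b on the plus strand (chr6:134920151-134920400).
Rbl1: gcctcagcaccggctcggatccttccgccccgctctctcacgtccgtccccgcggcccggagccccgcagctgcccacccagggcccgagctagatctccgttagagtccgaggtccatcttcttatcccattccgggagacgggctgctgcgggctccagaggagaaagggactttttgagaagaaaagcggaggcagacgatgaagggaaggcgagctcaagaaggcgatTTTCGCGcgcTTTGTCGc
Cdkn1b: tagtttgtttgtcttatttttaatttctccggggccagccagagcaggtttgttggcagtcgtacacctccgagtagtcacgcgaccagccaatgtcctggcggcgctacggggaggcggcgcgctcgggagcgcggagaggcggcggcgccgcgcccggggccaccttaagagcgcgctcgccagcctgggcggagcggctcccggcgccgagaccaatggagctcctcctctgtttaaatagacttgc
The E2F core was searched as TTTNNCG and the cell cycle homology region as TTTGAA, on both strands, and neither motif contains the other. The first match in Rbl1 begins 18 bases before the start and the second 8 bases before it. Of 32851 RefSeq windows of this length, 14.1% held the E2F core and 16.0% the cell cycle homology region. Windows were found for 6 of the 10 regulators (7 windows), of which those of Rbl1 and Cdkn2c held the E2F core, and that of Rbl2 the cell cycle homology region. Both Cdkn2c windows and that of E2f1 lie inside the annotated genes, 1817 (with the match), 433 and 466 bases after the first annotated start. A match is a run of letters only and says nothing of binding in these cells.

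E2f1 (chromosome 2, 154559407 to 154569892, minus strand), the activating E2F factor that RB1 binds, was expressed just above the minimum. It had 1.57, 1.71, 1.69 and 1.87 FPKM in the Ct libraries and 1.94, 1.43, 1.41 and 1.73 FPKM in the CS libraries, so that the CS libraries lay on both sides of the Ct range. The spread within groups, 0.16 on the log2 scale, was close to the 0.15 that its 80 to 113 reads give from counting. The log2 fold change was -0.07 (SE 0.16), and the interval of the fold ran from 0.748 to 1.21.

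**Figure D1:**
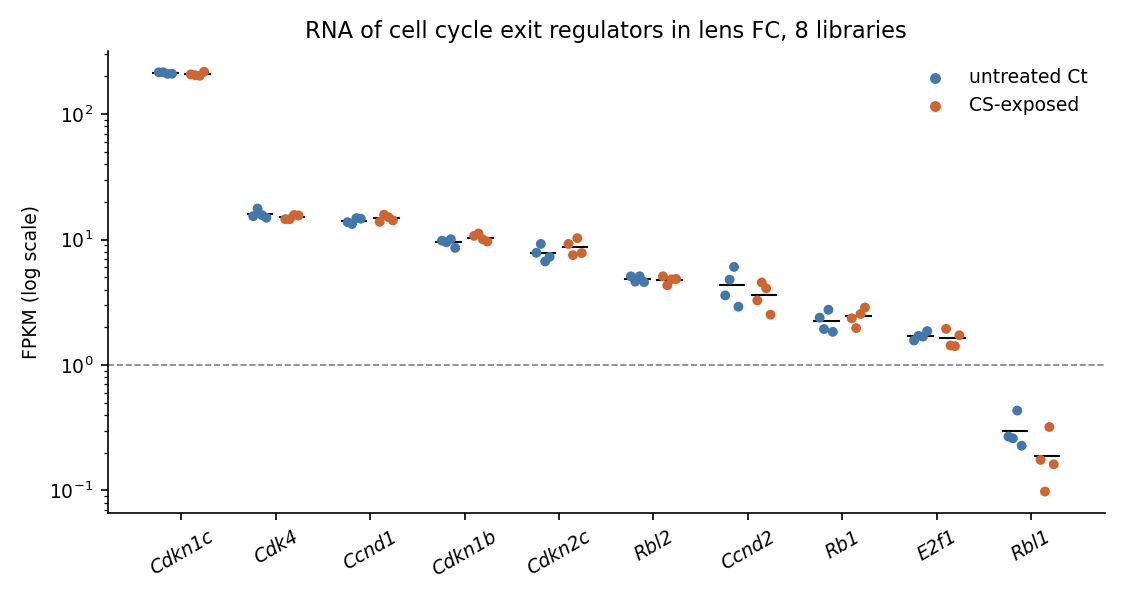
FPKM of the 10 regulators in 8 libraries of lens FC, on a log axis, with each point a library (blue, untreated Ct; orange, CS-exposed), short lines the means of 4 libraries and the dashed line the minimum of 1 FPKM. Cdkn1c lies near 210.7 FPKM, Cdk4 follows at 15.5, and Rbl1 alone lies under the dashed line, at 0.0980 to 0.433.

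Set in order of their mean over the 8 libraries, the levels ran Cdkn1c, Cdk4, Ccnd1, Cdkn1b, Cdkn2c, Rbl2, Ccnd2, Rb1, E2f1 and Rbl1. Cdkn1c was 13.6 times Cdk4 (12.2 to 14.3 in single libraries), and at the other end E2f1 was 7.43 times Rbl1 (3.89 to 14.6). Each neighbour in the order was tested against the next with a two-sided exact sign-flip test of the log2 ratio within libraries, adjusted over the 9 pairs. The order was read from the same values, so these tests describe it and give it no independent support. The smallest p the sign-flip test allows is 0.00781 before adjustment. A pair of neighbours did not differ beyond the spread in 2 cases. Cdk4 exceeded Ccnd1 by a factor of 1.07, in 7 of 8 libraries (exact adjusted p = 0.0791), and Rbl2 exceeded Ccnd2 by a factor of 1.25, in 5 of 8 libraries (exact adjusted p = 0.0938). The remaining 7 pairs passed the sign-flip test, with exact adjusted p between 0.0176 and 0.0201. Even so, the ranges of FPKM over libraries overlapped for Cdkn1b and Cdkn2c, for Ccnd2 and Rb1, and for Rb1 and E2f1. The 3 inhibitors together made up 82.9% to 84.9% of the summed FPKM of the 10 genes, and their sum was 13.3 to 15.6 times the level of Cdk4.

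Between CS-exposed and Ct mice, 0 of the 9 regulators tested passed p under 0.05 by limma, adjusted or not, against 4.83% of all 9794 genes without adjustment (2.08% lower and 2.75% higher in CS) and 0.0102% with it. The split of 204 lower and 269 higher genes was 235 and 239 with median centring, 249 and 249 for eBayes without a trend, 248 and 231 without Ct replicate 4, and 286 and 220 without CS replicate 3. The fitted change was higher in CS for Cdkn1b, Cdkn2c, Rb1 and Ccnd1 and lower for the other five, in no case past the test. The median size of the log2 fold change was 0.07 for the regulators and 0.08 for all genes tested, and the signed medians were -0.02 and 0.00. Groups that did not overlap were found for 0 of the 10 genes, where 3.08% of all genes tested had such groups. Of the 9, 0 lay beyond 2 SD of the log2 ratio of means, a fold of 1.40, where 3.6% of the tested genes with a ratio did. With so few genes, counts of 0 lie near these shares of all genes. limma-voom on reads recovered from the FPKM gave none of the 9 regulators a p under 0.05. The intervals show what could have been missed, with an upper bound on the fold of 1.04 for Cdkn1c and a lower bound of 0.600 for Ccnd2.

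**Figure D2:**
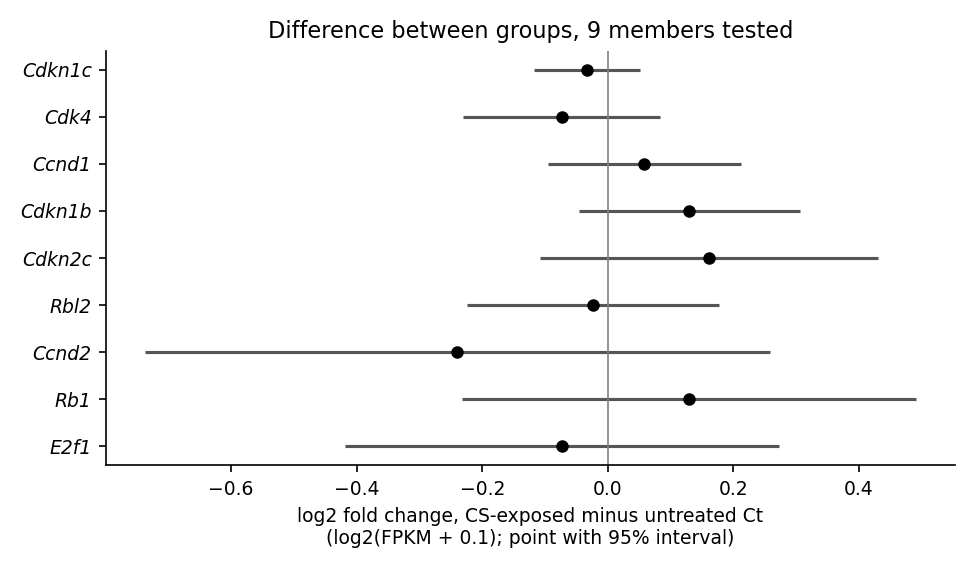
Fitted log2 fold change, CS-exposed minus untreated Ct, of the 9 regulators tested (points) with 95% intervals (lines), on log2(FPKM + 0.1). Each interval crosses 0, that of Cdkn1c being the narrowest (-0.12 to 0.05) and that of Ccnd2 the widest (-0.74 to 0.26).

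Ratios within a library do not depend on its depth. Of 6 ratios compared between groups, 0 passed an exact permutation test with p under 0.05. The ratio of Cdkn1c to Cdkn1b was 22.0, 22.7, 20.8 and 24.5 in the Ct libraries and 19.4, 18.3, 20.2 and 22.6 in the CS libraries. In 3 of 4 CS libraries it lay below every Ct library. The log2 difference was -0.16 (two-sided exact permutation test, p = 0.0857, adjusted over the 6 ratios 0.257). For Rbl1 to Rb1 the log2 difference was -0.62, again with 3 CS libraries below every Ct library (exact p = 0.0571, adjusted 0.257). It passed alone with a pseudocount of 1, which compresses low values (-0.22, exact p = 0.0286), and without CS replicate 3 (-0.79, exact p = 0.0286). The other four ratios had smaller differences against their spread, with log2 values of 0.03 for Cdkn2c to Cdkn1b, -0.30 for Ccnd2 to Ccnd1, -0.15 for Rbl2 to Rb1 and 0.07 for Cdkn1b to Ccnd1, and exact p between 0.286 and 0.714. Their sizes turned on single libraries, with Ccnd2 to Ccnd1 between -0.48 and -0.15, Cdkn1b to Ccnd1 between 0.01 and 0.10 and Rbl2 to Rb1 between -0.23 and -0.08 when each library was left out.

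Of the 10 regulators, only Ccnd2 had a level that passed the test of correlation with the lens epithelium markers. The epithelium score, the mean log2(FPKM + 0.1) of Foxe3, Cdh1, Gja1, Pdgfra, Aqp1, Pax6 and Tfap2a, was 2.51, 2.90, 3.43 and 2.49 in the Ct libraries and 2.49, 2.85, 2.97 and 2.37 in the CS libraries. In both groups replicates 2 and 3 had the higher scores and replicates 1 and 4 the lower ones, and Ccnd2 had its higher levels in the same libraries. The score itself did not differ between groups beyond the spread (log2 difference -0.16, exact permutation test, p = 0.486). Over the 8 libraries the log2 level of Ccnd2 and the score had Pearson's r of 0.93 (two-sided exact permutation test, p = 0.000769, adjusted over the 10 regulators 0.00769) and Spearman's rho of 0.905 (exact p = 0.00456, adjusted 0.0456). As deviations from the group means, r was 0.93. Without the 2 libraries farthest from the median score, Ct replicate 3 and CS replicate 4, r was 0.87 over 6 libraries. The exact permutation p was then 0.0667 and did not pass the threshold. No other pair was left out, so the loss of these 2 libraries and the smaller number of libraries cannot be told apart. The other nine regulators had an adjusted exact p of at least 0.620 for r. For Ccnd1, the other D-type cyclin, r was 0.35. For Rbl1, r was 0.59 and rho 0.714 (exact p = 0.0576, adjusted 0.277), and for E2f1, r was -0.38 and rho -0.667 (exact p = 0.0831, adjusted 0.277). Whether the correlation differed between regulators was not tested.

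The comparison of Ccnd2 between groups moved with the score. With the score as a covariate its log2 fold change was -0.07 (limma, adjusted p = 0.997), against -0.24 without it. Without the libraries of the highest and lowest score it was 0.09 (limma, adjusted p = 0.994). Both settings were chosen after the data had been seen. The scores and the Ccnd2 values share the same libraries, and whether Ccnd2 RNA came from epithelial cells was not tested.

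**Figure D3:**
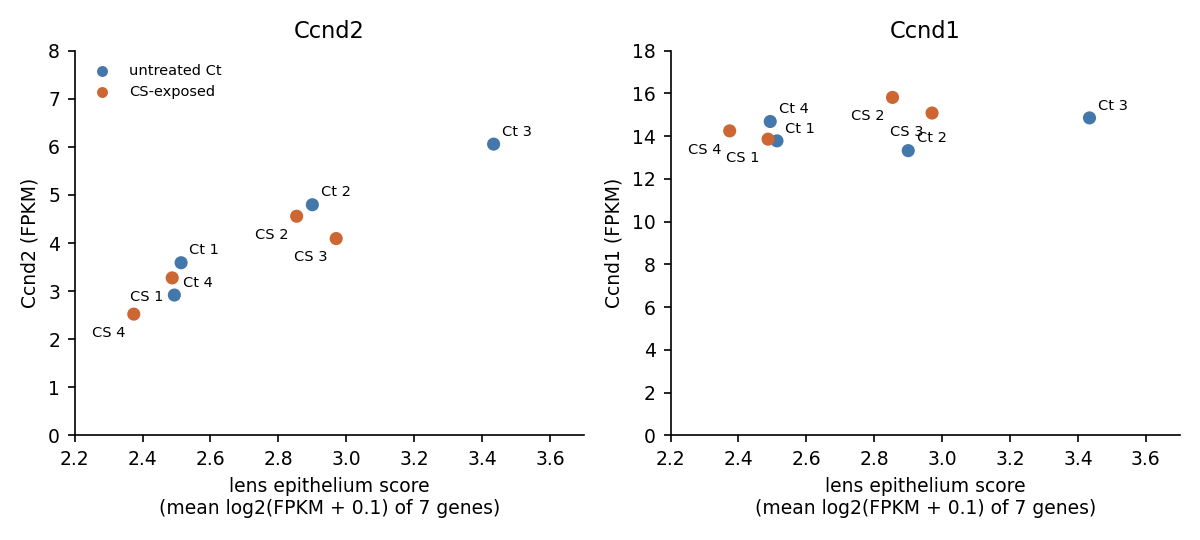
FPKM of Ccnd2 (left) and Ccnd1 (right) against the lens epithelium score (mean log2(FPKM + 0.1) of 7 genes) in 8 libraries (blue, untreated Ct; orange, CS-exposed; numbers are replicates). Ccnd2 goes from 2.52 FPKM at a score of 2.37 to 6.06 FPKM at 3.43, while Ccnd1 stays between 13.3 and 15.8 FPKM.

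Beside their relatives, Cdkn1c, Cdkn2c, Cdk4, Ccnd1 and Rbl2 had the highest mean FPKM of their families, while Cdkn1b, Rb1, Rbl1 and Ccnd2 did not, and E2f1 lay above E2f2 and E2f3 but below E2f4, E2f5 and E2f6. The relatives were taken from lists of pathway genes, and those named beyond the naming rule, such as Cdk6, E2f4, Mki67, Nusap1 and Skp2, were added after their values had been seen. Among the CIP/KIP inhibitors, Cdkn1c held 94.5% to 95.8% of the summed FPKM, Cdkn1b 3.92% to 5.18%, and Cdkn1a, the p21 gene known as a target of p53, 0.0921% to 0.539%. Among the INK4 inhibitors the level was more evenly spread. Cdkn2c held 34.9% to 47.4% of their sum, Cdkn2b (p15) had 5.40 ± 1.07 FPKM (SD over 8 libraries), Cdkn2d (p19) 4.09 ± 0.991, and Cdkn2a 2.12 ± 1.06. Among these other inhibitors, Cdkn2b had the smallest p (log2 fold change -0.19, limma, adjusted p = 0.961).

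Cdk4 held 92.5% to 96.3% of the summed FPKM of Cdk4, Cdk6 and Cdk2. It was 31.4 to 92.8 times Cdk6, the other partner of the D-type cyclins, which had 0.163 to 0.484 FPKM, and 16.5 to 47.3 times Cdk2, the partner of cyclins E and A, which had 0.375 to 0.931 FPKM. Ccnd1 held 56.0% to 62.5% of the D-type cyclin sum, Ccnd3 20.2% to 26.5% and Ccnd2 11.1% to 23.1%. This sum was 16.3 to 34.7 times that of the E and A cyclin genes Ccne1, Ccne2 and Ccna2, which each had a mean under 1 FPKM. Ccnh, the cyclin of the CDK-activating kinase, was at 8.79 FPKM, and its partner Cdk7 had the smallest p of this list (limma, adjusted p = 0.961), with 2.09 ± 0.142 FPKM in Ct and 2.32 ± 0.0495 FPKM in CS (SD).

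Of the pocket protein sum, Rbl2 held 61.5% to 68.9%, Rb1 27.6% to 36.5% and Rbl1 1.53% to 5.23%. The E2F genes were tilted to those that act mainly as repressors. E2f4, E2f5 and E2f6 together were 4.69 to 6.94 times the sum of the activators E2f1, E2f2 and E2f3 in single libraries. This ratio was 4.69 to 6.94 in Ct libraries and 5.12 to 6.20 in CS libraries, so that the CS range lay within the Ct range. E2f1 and E2f3 had 1.67 and 1.33 FPKM, E2f2 was at most 0.140 FPKM, and E2f7 and E2f8, atypical repressors of the S and G2 phases, were at most 0.0712 and 0.106 FPKM.

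**Figure D4:**
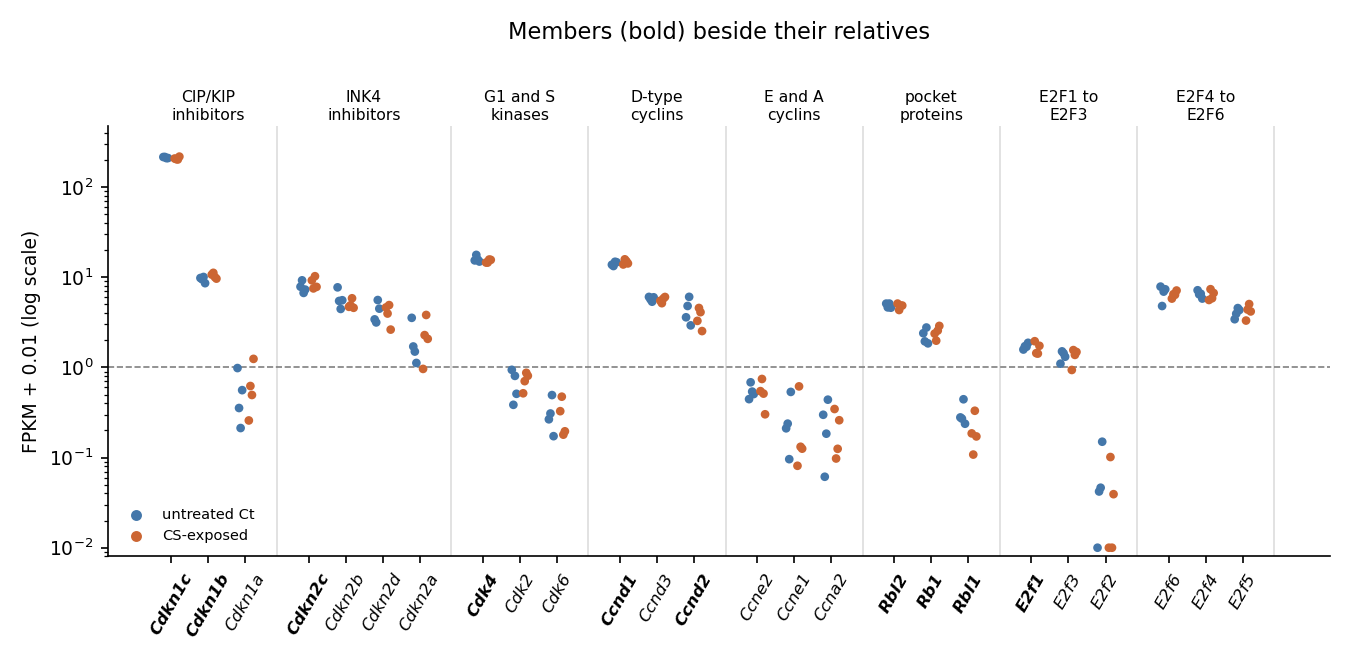
FPKM (plus 0.01, log axis) of the regulators (bold) and their relatives by family in 8 libraries, with each point a library (blue, untreated Ct; orange, CS-exposed) and the dashed line at 1 FPKM. Cdkn1c, Cdk4, Ccnd1 and Rbl2 lead their families, and Cdk2, Cdk6, the E and A cyclins, Rbl1 and E2f2 lie under 1 FPKM in all 8 libraries.

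The wider pathway was covered by 81 genes in 7 lists, of which 39 were tested and 42 stayed under a mean of 1 FPKM in both groups. Of the 39, 0 were lower and 1 was higher in CS with p under 0.05, or 2.56%, against 4.83% of all genes tested. Their median log2 fold change was -0.02, and the smallest adjusted p was 0.956. Groups that did not overlap were found for 2 of the 39, Cdk7 and Rbbp4, where 3.08% of all genes tested had such groups. In each, all 4 CS libraries lay above every Ct library. Among the 42 genes under the minimum this held for 1, Nusap1, with all 4 CS libraries below. Nusap1 had only 0.0246 to 0.329 FPKM. With no minimum level, 476 of 21019 genes had such groups. The gene past the threshold without adjustment was Rbbp4, a histone-binding subunit of the DREAM complex and of deacetylase complexes. Rbbp4 had 40.0 ± 1.26 FPKM in Ct and 44.0 ± 1.14 FPKM in CS (SD, n = 4 each). Its log2 fold change was 0.14 (SE 0.05, limma, adjusted p = 0.956). It was also the highest of the 16 other E2F, DP and DREAM genes, followed by Tfdp1, the main dimer partner of E2F factors, at 8.54 FPKM, and 10 of these were tested.

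Genes that E2F factors turn on for DNA replication were low, and those of mitosis lower still. Of 18 replication genes, 8 were tested and 0 passed p under 0.05, where 4.83% of all genes tested did. With 8 genes, a count of 0 lies near this share. Pcna, the sliding clamp that also serves repair, had 8.06 FPKM and Gmnn, the licensing inhibitor geminin, 5.10 FPKM. Mcm2, a subunit of the replicative helicase, had the smallest p, with 1.30 ± 0.380 FPKM in Ct and 0.901 ± 0.241 FPKM in CS (SD). Its log2 fold change was -0.49 and did not pass the test (limma, adjusted p = 0.956). It reached the minimum level only in Ct, the higher group, so the filter favoured a change in this direction. Of 18 mitosis genes, Aurka, a spindle kinase gene at 1.71 FPKM, was the only gene tested (limma, adjusted p = 0.995), and Cdc20 followed at 0.569 FPKM. Mki67, the common marker of cycling cells, had 0.0300 to 0.246 FPKM.

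The genes that remove p27 and cyclins were mostly expressed. Of 10 genes, 8 were tested and 0 passed p under 0.05, where 4.83% of all genes tested did, so that a count of 0 lies near this share. Skp1a and Rbx1, core parts of the SCF ubiquitin ligase, had 66.3 and 21.5 FPKM, while Skp2, the receptor that brings p27 to it, had 0.217 to 0.567 FPKM. Ambra1, the receptor for D-type cyclins, had the smallest p (log2 fold change -0.20, limma, adjusted p = 0.956). All 6 chromatin partners of RB1 were tested and 0 passed, again near the share of all genes. Rbbp7 was at 20.3 FPKM and the deacetylase gene Hdac2 at 10.8 FPKM. The smallest p was that of Arid4a, an RB1-binding protein gene (log2 fold change -0.10, limma, adjusted p = 0.985).

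The genes whose log2 levels most resembled a regulator over the 8 libraries were found for Cdkn1c, the highest, and Cdkn1b, the regulator with the smallest p. For Cdkn1c these were Zfp467 (Pearson's r 0.96), Nr1h2 (0.92) and Kpna3 (0.90). For Cdkn1b they were Fam189b (0.96), Gsr, the glutathione reductase gene (0.95), and Prdm2 (0.93). These are the highest of 9794 values for each regulator, all from the same 8 libraries, and are given as a description.

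Some levels may be affected by neighbours on the other strand, since the counting is not stated to use strand. Whether reads of shared exons were counted for a gene or left out is not stated either, so the direction is not known. By the exons of GENCODE, Cdk4 shares 19.7% of its exon bases with Tspan31, which had 3.32 to 5.27 FPKM, and Rbl2 shares 9.17% with Aktip, which at 27.8 FPKM was higher than Rbl2 itself. Rbl2 also shares 11.8% with Gm45464, Ccnd1 23.4% with LTO1 and Cdkn1c 30.7% with the antisense gene Gm44732, and these neighbours were not analysed here. Rb1 shares 8.11% with Rcbtb2 and 6.78% with Lpar6, and Ccnd2 at most 3.95% with an antisense gene. For Cdkn1b, Cdkn2c, E2f1 and Rbl1 no overlapping exon was found.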

How the data were processed

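Lens FC libraries of 4 CS-exposed and 4 untreated Ct pools were compared. Per the labels, libraries were made with a NEBNext Ultra RNA kit, and the submitters' processing notes name STAR 2.5, HTSeq 0.6.1 and GRCm38. The values the authors deposited are FPKM of single libraries. The deposited group means, fold changes and p-values hold the authors' own comparison and were not used. The annotation and strand setting are not given in the sources used here.

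The test covered the 9794 genes whose mean FPKM reached 1 in either group. It was run on log2(FPKM + 0.1) with limma 3.58.1 (R 4.3.3; lmFit and eBayes with a trend, two-sided), with Benjamini-Hochberg adjustment over all of them. On this scale the change of low genes is understated. Single values were compared with exact permutation tests (Python 3.11.15, scipy 1.17.1), and figures drawn with matplotlib 3.10.9. Steps of low FPKM gave the depth, and whole reads (within 0.05 reads) for 100% of tested genes, most with a fitted length. Fragment numbers are estimates that rest on annotated lengths. Coordinates and exons are from GENCODE for GRCm38.

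The regulators and all lists were chosen with earlier results of these data known. Genes named are the 10 regulators, in each pathway list the 2 with the highest mean FPKM, that with the smallest p and those with p under 0.05, the highest gene of each marker list, and the 3 genes most like Cdkn1c and Cdkn1b. p-values measure the spread between pools. Alternatives were other pseudocounts (0.01 and 1), minimum levels (0.5, 5 and none), median centring, quantile normalization, eBayes without a trend or robust, the replicate block and leaving out each library. Settings on the epithelium score and limma-voom on recovered reads were added after seeing the data.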

Additional observations from a re-analysis of the deposited data

How the results depend on the processing

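Of 214 alternative values of the regulators' log2 fold changes, 209 kept their direction and their side of the threshold, 4 changed direction and 1 passed p under 0.05. The change of direction concerned Rbl2, whose value when each library was left out ran from -0.055 to 0.023, being 0.00035 without Ct replicate 1, 0.00075 without Ct replicate 3 and 0.023 without CS replicate 2, and Ccnd2, at 0.091 without the libraries with the highest and lowest epithelium score. Rbl1 passed without CS replicate 3 only, at the low end of its range when each library was left out, -0.69 to -0.32. The sizes of the other fold changes, of which 0 passed the test, also moved when each library was left out, in several cases by over 1.5 times. They ran from 0.024 to 0.087 for Ccnd1, -0.41 to -0.065 for Ccnd2, -0.10 to -0.022 for Cdk4, 0.083 to 0.16 for Cdkn1b, -0.055 to -0.020 for Cdkn1c, 0.079 to 0.25 for Cdkn2c, -0.16 to -0.013 for E2f1 and 0.047 to 0.23 for Rb1. The log2 ratio of Rbl1 to Rb1 ranged from -0.79 to -0.51 in the same way, and was -0.22 with a pseudocount of 1, and that of Cdkn2c to Cdkn1b ranged from -0.066 to 0.13, being -0.064 without Ct replicate 3 and -0.066 without CS replicate 3. The correlation with the epithelium score was 0.87 for Ccnd2, 0.49 for Cdkn2c, -0.50 for Rbl2, 0.08 for Rbl1 (against 0.59) and -0.70 for E2f1 (against -0.38) without the 2 farthest libraries, and -0.012 for Rbl2 as deviations from group means. The cause of these shifts was not tested.

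Over all genes, 226 had p under 0.05 with a minimum of 5 FPKM and 862 with no minimum, against 473, and 133 and 476 had groups that did not overlap, against 302, since fewer or more genes were tested. At an adjusted p under 0.05 there was 1 gene, against 0 with no minimum, 0 for eBayes without a trend, 2 for limma-voom on recovered reads, and 0 to 1 when each library was left out, 0 being without Ct replicate 4. With the replicate number as a block there were 5 such genes and 522 with p under 0.05. Same-numbered libraries deviated together with correlations of 0.01, 0.08, 0.11 and 0.16 (mean 0.09, against -0.03 for different numbers). These weak correlations over all tested genes cannot settle whether the numbers pair the libraries. The block gave none of the 9 regulators tested a p under 0.05, and Rbl1 was not fitted with it. For Ccnd2 the block gave an SE of 0.12 and a limma p of 0.0726 (adjusted 0.918). Depth limits Rbl1 (11 to 49 reads) and E2f1 (80 to 113 reads) most.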
